A study of Drosophila melanogaster with 16 samples.

Results

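Ribosome-bound transcripts pulled down from fru P1 cells of female heads (female TRAP, 4 libraries, replicates 2 to 5) were set against total mRNA of female heads (female total mRNA, 4 libraries with the same replicate numbers). These 8 of the 16 libraries of the series were taken by their sex and fraction labels alone. The other 8 hold the same fractions of male heads and are used here only for the difference between the sexes. In a w background, every fly carried P[w+mC, UAS-Gal4] over P[w+mC, UAS-GFP::RpL10A] and 1 copy of fru P1-Gal4, so the total mRNA came from flies with the same transgenes as the TRAP fraction. Heads of about 1000 sex-sorted flies per sample were pooled. The flies were 10 to 12 days old, had been kept at 25 °C with 12 h of light a day, and were frozen at ZT1 to ZT2, shortly after lights on. Total mRNA is the lysate before the pull-down. Which cells carry the tag depends on the fru P1-Gal4 driver, and a pull-down from untagged flies was not analysed here.

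TRAP, translating ribosome affinity purification, recovers mRNA together with ribosomes that carry a tagged large-subunit protein, here RpL10A fused to GFP. The fruitless gene, fru, encodes zinc finger transcription factors, and transcripts from its P1 promoter are spliced differently in the sexes. Male-specific proteins made from them are required for courtship, and in females the P1 transcripts give no such protein although the P1 promoter is active in neurons of either sex. A log2 fold change above 0 means a higher level of an mRNA in ribosome-bound RNA than in total head mRNA, after scaling for library composition. Because of that scaling, 0 does not mark equal shares of the reads. In bulk libraries such as these, fewer cells of a type and less RNA per cell cannot be told apart.

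Between 15353672 and 24866184 reads per library were counted in exons, and 3 counts, the smallest number treated as detected, correspond to 0.121 to 0.195 CPM, which are counts per 1000000 counts of the library. The 100 exons with the most counts held 16 to 18.4% of the reads in female TRAP and 27.4 to 31.3% in female total mRNA. After the study's filter, 30192 exons of 8300 genes were tested. Values below are CPM after scaling for library composition (normalised CPM), and each gene is represented by its tested exon with the highest mean level. A gene is called higher or lower when the adjusted p of that exon is under 0.2 in edgeR's exact test, which is the threshold of the study. On this basis 4344 genes (52.3%) were called higher and 2605 (31.4%) lower in female TRAP, 1841 (22.2%) and 1634 (19.7%) by at least 2-fold. When a call in any tested exon of a gene sufficed, 4609 genes (55.5%) were higher and 3564 (42.9%) lower, 7566 (91.2%) in all, and 607 of these went both ways. In 3682 genes (44.4%) all 4 TRAP libraries lay above all 4 total mRNA libraries, and in 2247 (27.1%) all lay below. The median log2 fold change over all genes was 0.33, and each group of genes below is read against that value and these percentages. With library totals as the only scaling, this median was 0.73, and 73.0% of calls were higher in TRAP, against 62.5% with the main scaling.

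The driver gene was checked first. Normalised CPM of the fru exon at chr3R:18425959-18427166 (dm6, minus strand, coding) were 54.0, 47.5, 57.3 and 57.7 in female TRAP, against 19.8, 23.0, 20.7 and 22.7 in female total mRNA. The groups were well separated, at a log2 fold change of 1.33 (SE 0.13; edgeR exact test, adjusted p = 4.01e-17). All 9 fru exons that passed the filter were higher in TRAP. The exon at chr3R:18513451-18515343, which holds 5′ UTR and coding sequence, averaged 24.0 ± 5.5 CPM in TRAP, against 4.33 ± 1.08 in total mRNA (SD, n = 4 each). RpL10Ab, the fly gene of the tagged ribosomal protein, averaged 1972 ± 308 CPM in TRAP, against 1345 ± 187 in total mRNA, with a log2 fold change of 0.55 (SE 0.18). Its reads can include the transgene, 2 of its 5 tested exons were higher, and its most 5′ exon had a log2 fold change of -0.03.

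Neuron-wide genes were raised on tagged ribosomes. Of 11 such genes 10 were called higher, 9 of them by at least 2-fold, with a median log2 fold change of 1.27. The RNA-binding protein gene elav, which marks neurons, had 200, 156, 231 and 297 CPM in TRAP, against 66.8, 79.1, 84.3 and 112 CPM in total mRNA. No total mRNA library reached the lowest TRAP library. Its paralog fne had the largest change of the list (1.94, SE 0.24), followed by the sodium channel gene para (1.73, SE 0.20) and brp, a scaffold of the active zone (1.55, SE 0.16). Rbp9, another elav paralog, was the only one called lower, at -0.40 (SE 0.17), with overlapping groups of 253 ± 57.7 CPM in TRAP, against 334 ± 19.4 CPM in total mRNA, and was not called by library totals alone. Summed over the list, TRAP libraries held 3488 to 5296 CPM and total mRNA libraries 1744 to 2515 CPM.

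**Figure D1:**
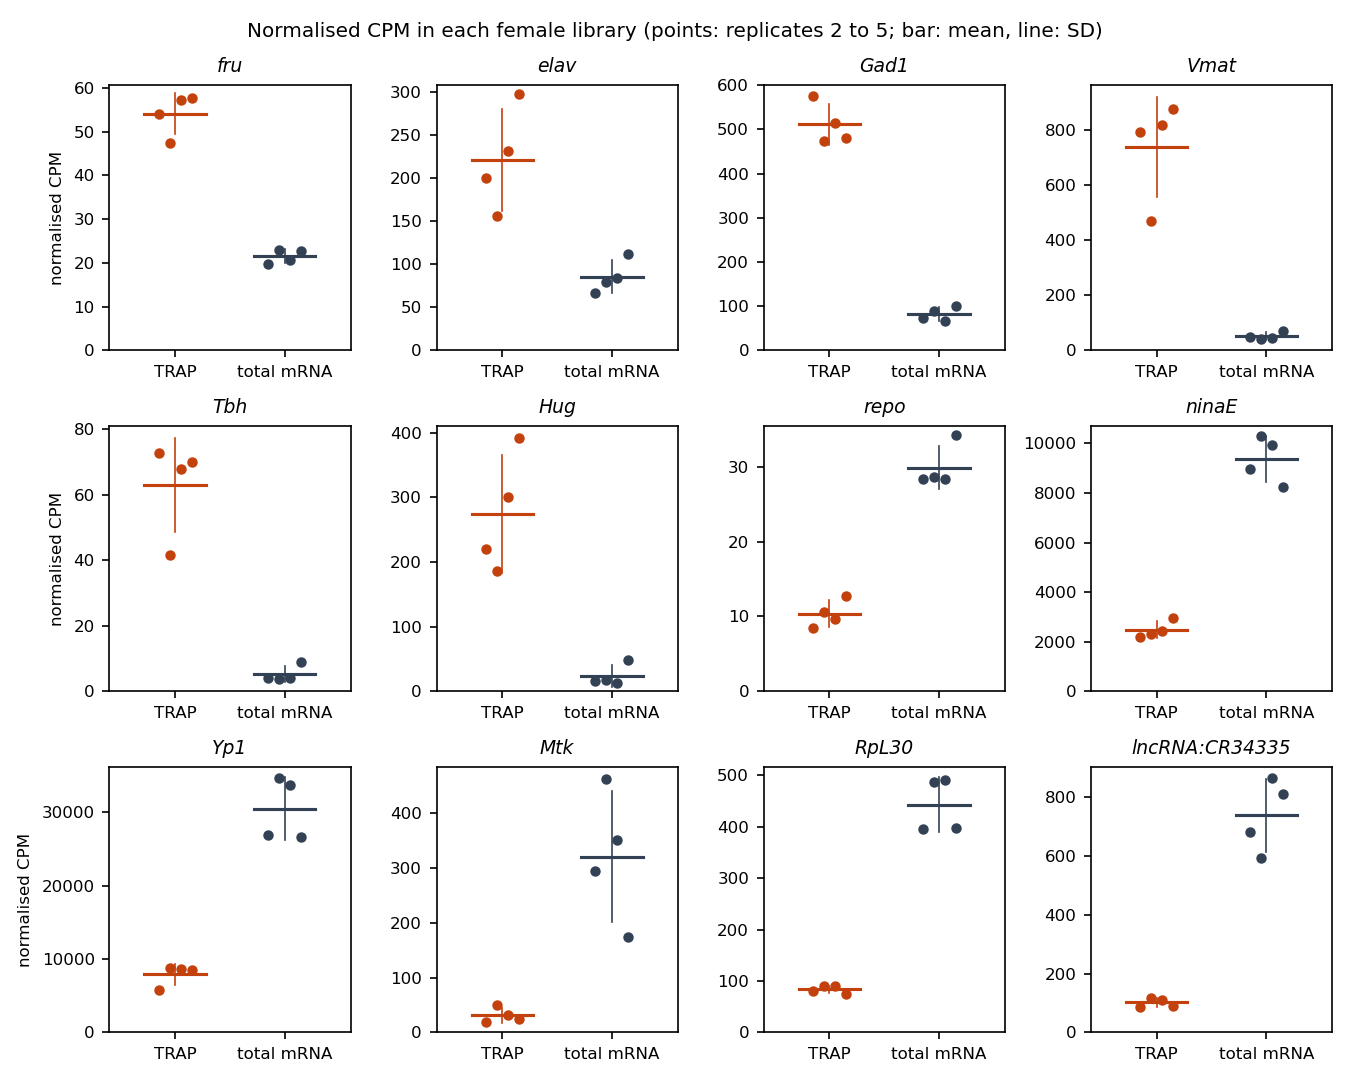
Normalised CPM of the represented exon of 12 genes (linear axis), with a bar at each group mean. In each panel, points on the left are female TRAP libraries and points on the right are female total mRNA libraries. Neuronal genes such as Vmat, Tbh and Hug lie higher in TRAP, and repo, ninaE, Yp1, Mtk, RpL30 and lncRNA:CR34335 lie lower, with no overlap between the groups in these panels.

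Genes of synaptic release were raised almost throughout. Of 35 genes of the synaptic vesicle cycle and active zone, 34 were called higher and 33 at least 2-fold, and their median log2 fold change was 1.56. Snap25, a SNARE protein of vesicle fusion, had 485, 269, 572 and 453 CPM in TRAP, against 61.4, 56.0, 67.8 and 93.2 CPM in total mRNA. The lowest TRAP library stood far above the highest total mRNA library, and the log2 fold change of 2.68 (SE 0.24; edgeR exact test, adjusted p = 3.86e-25) was the largest of the list. Next came comt, the ATPase that takes SNARE complexes apart (2.53, SE 0.16), and Sytbeta, a synaptotagmin (2.38, SE 0.19). At the other end, cpx, whose product clamps the SNARE complex, changed by 0.48 (SE 0.16) with overlapping groups and stood at -0.96 by its most 5′ exon, and Nsf2, a paralog of comt, was not called (0.13, SE 0.14). stnA and stnB share 1 transcript and count as separate members of the list. Over this list the sums were 5145 to 7106 CPM in TRAP and 2148 to 2766 CPM in total mRNA.

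Genes that define the fast transmitters were all higher, 7 of 7, at a median of 1.78. Gad1, which makes GABA (chr3L:4074077-4075538, coding and 3′ UTR), had 576, 474, 514 and 480 CPM in TRAP, against 73.1, 89, 67.5 and 100 CPM in total mRNA. With a log2 fold change of 2.63 (SE 0.17; edgeR exact test, adjusted p = 4.1e-45), it was followed by the choline transporter gene ChT (2.41, SE 0.20). VGAT, which loads GABA into vesicles, stood at 1.64 (SE 0.20), and VGlut, which loads glutamate, at 1.48 (SE 0.17). ChAT, which makes acetylcholine, was represented by an exon that overlaps the vesicular transporter gene VAChT, so its 1.78 (SE 0.22) describes both. Markers of cholinergic, GABAergic and glutamatergic neurons were therefore all present at higher levels in TRAP.

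Among 12 tested genes of monoamine synthesis and transport the members parted widely, with 6 higher, 4 lower and 2 not called (median 0.49). Vmat, which loads dopamine, serotonin and octopamine into vesicles (chr2R:13513132-13518139, coding and 3′ UTR), had 792, 469, 815 and 873 CPM in TRAP, against 48.8, 42.9, 44.3 and 71.2 CPM in total mRNA. It had the largest change of any gene that met the naming rule, with a log2 fold change of 3.83 (SE 0.24; edgeR exact test, adjusted p = 1.38e-48). The exon overlaps CG13330, which lies within Vmat, and the counts carry no strand, so CG13330 (3.45, SE 0.22) cannot be separated from it. Tbh, the enzyme that makes octopamine from tyramine, had 72.7, 41.7, 67.7 and 69.8 CPM in TRAP, against 4.21, 3.77, 4.17 and 8.98 CPM in total mRNA (log2 fold change 3.58, SE 0.28). Tdc2, which makes tyramine, fell below the filter because its total mRNA level was under 2 CPM. It had 16.1, 12.6, 20.9 and 16.6 CPM in TRAP, against 0.85, 0.699, 1.04 and 1.96 CPM in total mRNA, and its values were looked at after the other genes of the route. The groups did not overlap, and its exact permutation p was 0.0286, the smallest that 4 against 4 libraries allow, or 0.168 after adjustment over the 7445 genes below the filter.

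Serotonin genes changed in the same direction. Trhn, the first enzyme of serotonin synthesis in neurons, had 37.7, 27.7, 46.8 and 35.6 CPM in TRAP, against 4.38, 5.03, 4.61 and 7.03 CPM in total mRNA (log2 fold change 2.81, SE 0.20). SerT, the serotonin transporter gene, had a log2 fold change of 2.29 (SE 0.17), and DAT, the dopamine transporter gene, one of 2.52 (SE 0.24). The dopamine enzymes did not follow. ple, which encodes tyrosine hydroxylase, averaged 24.8 ± 5.79 CPM in TRAP, against 22.6 ± 8.96 CPM in total mRNA, a difference of 0.14 (SE 0.24) that was not called, and stood at -1.45 by its most 5′ exon. Ddc, the decarboxylase shared by the dopamine and serotonin routes, averaged 93.5 ± 13.7 CPM in TRAP, against 82.4 ± 16.6 CPM in total mRNA (0.18, SE 0.17), and was called only with the replicate number as a block (0.19; edgeR quasi-likelihood test, adjusted p = 0.14).

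The 4 genes called lower here serve histamine, pigment or cofactor metabolism. The histamine enzyme gene Hdc had 4.16, 5.08, 5.20 and 7.50 CPM in TRAP, against 18.7, 19.9, 18.7 and 15.8 CPM in total mRNA (log2 fold change -1.74, SE 0.18). Histamine is the transmitter of fly photoreceptors. t (tan), which frees histamine and dopamine from their beta-alanyl forms, was lowest of the list at -2.62 (SE 0.21), e (ebony), which makes those forms, was at -1.72 (SE 0.17), and Pu, which encodes GTP cyclohydrolase, was at -1.12 (SE 0.15).

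**Figure D2:**
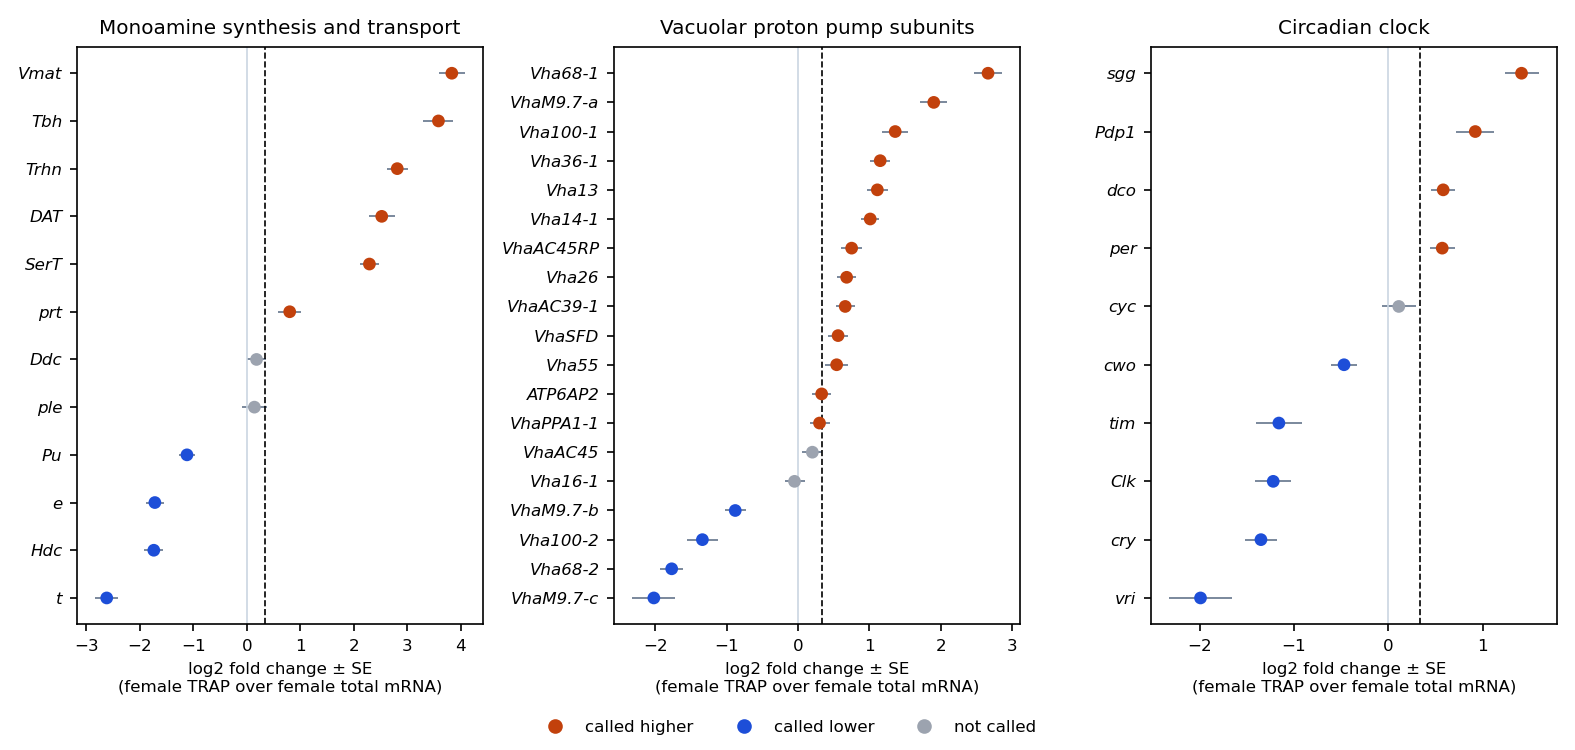
Log2 fold change of female TRAP over female total mRNA for each tested member of the monoamine, proton pump and clock lists, with bars of 1 SE and colour for the call. Vmat at 3.83 and t at -2.62 mark the ends of the monoamine list, Vha68-1 at 2.66 and Vha68-2 at -1.77 show paralogs of 1 pump subunit on opposite sides of 0, and the clock list runs between -1.99 for vri and 1.41 for sgg.

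Receptors for these transmitters were mostly raised. Of 16 monoamine receptor genes 14 were higher and 13 at least 2-fold, at a median of 1.52. The octopamine and tyramine receptor gene Oct-TyrR had 14.8, 10.2, 14.6 and 15.7 CPM in TRAP, against 2.64, 2.7, 2.91 and 3.80 CPM in total mRNA (log2 fold change 2.21, SE 0.19). The serotonin receptor gene 5-HT1A was next at 2.13 (SE 0.25). Another serotonin receptor gene, 5-HT2A, was the only one called lower, at -0.86 (SE 0.19), with 3.88 to 5.86 CPM in TRAP, against 7.83 to 10.7 CPM in total mRNA. All 9 of its tested exons were lower. Octbeta2R was not called (0.20, SE 0.18), except with the replicate number as a block (0.21; edgeR quasi-likelihood test, adjusted p = 0.0921).

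Acetylcholine receptor genes were higher in 11 of 12 cases at a median of 1.59, led by nAChRalpha1 (2.04, SE 0.20) and nAChRalpha3 (1.96, SE 0.24) among nicotinic subunits and by mAChR-A (1.83, SE 0.15) among muscarinic receptors. The exception was nAChRbeta3 at -1.39 (SE 0.52), whose exon overlaps Ets21C and whose libraries of replicate 4 stood out. It had 3.35, 3.04, 12.4 and 4.78 CPM in TRAP, against 7.69, 7.03, 34.2 and 12.8 CPM in total mRNA, and its log2 fold change was -0.67 without total mRNA replicate 4 and -2.05 without TRAP replicate 4. Of 14 GABA and glutamate receptor genes 12 were higher, at a median of 1.32, with the GABA-gated chloride channel gene Rdl at 1.95 (SE 0.23), GABA-B-R1 at 1.77 (SE 0.17) and Nmdar2 at 1.70 (SE 0.15). Grd, a GABA receptor-like subunit, was called lower at -0.68 (SE 0.17), though not by library totals alone, and the kainate-type receptor gene Grik was not called (0.20, SE 0.24).

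Voltage-gated and potassium channel genes were higher in 27 of 32 cases, 15 of them by at least 2-fold, at a median of 0.96. unc79, a partner of the sodium leak channel, rose by 1.98 (SE 0.20), and sei, the fly ERG potassium channel, by 1.82 (SE 0.16). The sodium channel gene para had 391, 395, 404 and 516 CPM in TRAP, against 95.0, 110, 132 and 179 CPM in total mRNA. The highest total mRNA library was well under the lowest TRAP library. All of the 4 called lower are potassium channels open near rest, namely the 3 inward rectifiers Irk1 (-0.95, SE 0.15), Irk2 (-1.12, SE 0.17) and Irk3 (-1.20, SE 0.22), with the leak channel gene Ork1 (-1.19, SE 0.25). KCNQ was not called (-0.09, SE 0.24).

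Neuropeptide genes held several of the largest changes. Of 48 precursor genes 28 were tested, and 21 of these were higher, 20 of them by at least 2-fold, and 6 lower, with a median of 1.94. Proc, the precursor of proctolin, had 257, 160, 226 and 296 CPM in TRAP, against 15.3, 15.8, 13.1 and 26.5 CPM in total mRNA (log2 fold change 3.73, SE 0.26; edgeR exact test, adjusted p = 2.48e-41). Hug, which encodes hugin peptides involved in feeding, had 221, 186, 300 and 392 CPM in TRAP, against 15.7, 17.7, 13.1 and 48.9 CPM in total mRNA (3.53, SE 0.40). Replicate 5 was the highest library of either group, and without total mRNA replicate 5 the log2 fold change was 4.13. AstA, the precursor of allatostatin A, had 62.0, 56.0, 79.0 and 66.9 CPM in TRAP, against 5.41, 7.08, 6.20 and 10.6 CPM in total mRNA (3.17, SE 0.21). Other members with large values were FMRFa (2.93, SE 0.30) and NPF, the fly neuropeptide F (2.79, SE 0.20), and spab, a peptide precursor outside this list, stood at 3.05 (SE 0.23).

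Insulin-like peptides of the brain's median neurosecretory cells were higher in TRAP. Ilp2 had 189, 135, 157 and 184 CPM in TRAP, against 26.9, 25.6, 19.7 and 104 CPM in total mRNA. Total mRNA replicate 5 stood apart from the others of its group, and the log2 fold change of 1.92 (SE 0.43) was 2.77 without it. Ilp3 (2.53, SE 0.28) and Ilp5 (2.42, SE 0.31) were likewise higher, while Ilp6, an insulin-like peptide made in fat body and glia, was lower at -1.38 (SE 0.23). The other members with a clear fall were Nplp3, at 44.5, 54.5, 39.2 and 46.6 CPM in TRAP, against 260, 224, 199 and 241 CPM in total mRNA (-2.32, SE 0.15), and CCHa2, a gut and fat body hormone (-1.36, SE 0.19). Pdf, the peptide of clock neurons, was also lower, at -0.73 (SE 0.14), with 14, 11.4, 14.2 and 14.7 CPM in TRAP, against 23.8, 20.1, 20.5 and 25.6 CPM in total mRNA. Crz, which encodes corazonin, averaged 6.66 ± 1.75 CPM in TRAP, against 6.75 ± 1.75 CPM in total mRNA and was not called. Of the 20 precursor genes below the filter, 18 had at least 1 read. All TRAP libraries were above all total mRNA libraries in 5 of these (27.8%) and below in 2 (11.1%). The shares were 7.23% and 9.81% of the 7445 genes with a read below the filter. CCHa1 was one of the 5, with 6.75, 8.49, 10.4 and 12.9 CPM in TRAP, against 0.895, 0.978, 0.658 and 1.38 CPM in total mRNA.

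Of 10 genes that process peptides or serve dense-core vesicles, 7 were higher and 1 lower (median 1.01). IA-2, a dense-core vesicle membrane protein, averaged 7579 ± 1686 CPM in TRAP, against 1322 ± 317 CPM in total mRNA (2.52, SE 0.24), and all 13 of its tested exons were higher. 7B2, the chaperone of the prohormone convertase, changed by 2.21 (SE 0.16) and the convertase gene amon by 1.88 (SE 0.16). The amidating lyase gene Pal1 was the one called lower (-1.0, SE 0.16), and Phm, which encodes the amidating monooxygenase, was called only with the replicate number as a block (0.22; edgeR quasi-likelihood test, adjusted p = 0.0834).

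Receptors for peptides depended on the filter. Of 19 tested receptor genes 9 were higher, 4 lower and 6 not called, and the median was 0.36, or 0.04 to 0.32 with 1 library left out. Without the filter on low counts, which leaves out genes above 2 CPM in TRAP alone as well as in total mRNA alone, the median was 1.12, against 0.35 for all genes. SIFaR, the SIFamide receptor gene, led with 13.5, 9.59, 13.4 and 12.4 CPM in TRAP, against 2.42, 2.75, 3.73 and 5.12 CPM in total mRNA (1.81, SE 0.23). TrissinR (1.67, SE 0.26) and NPFR (1.39, SE 0.28) came next. The lowest were AkhR, the fat body receptor of adipokinetic hormone (-1.41, SE 0.23), Pdfr (-1.29, SE 0.15) and CrzR (-1.04, SE 0.20). Pdfr depended on the exon: its most 3′ exon had a log2 fold change of 0.37. A further 21 receptor genes were below the filter, and in 15 of them all TRAP libraries were above all total mRNA libraries, against 7.23% of genes below the filter. In 10 of the 21, every TRAP library was above 2 CPM, and the share of all genes below the filter with this trait was not computed. Of those 7445 genes, 120 had it together with at most 2 CPM in every total mRNA library. CCKLR-17D3, a drosulfakinin receptor gene, had 7.06, 7.07, 9.09 and 8.56 CPM in TRAP, against 1.43, 1.58, 2.36 and 2.19 CPM in total mRNA. AstC-R2 had 7.67, 5.76, 6.46 and 7.15 CPM in TRAP, against 2.06, 1.40, 0.987 and 1.21 CPM in total mRNA. These low-level genes were chosen after their values were seen, and none of them could pass an adjusted p below 0.168 in the exact permutation test.

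**Figure D3:**
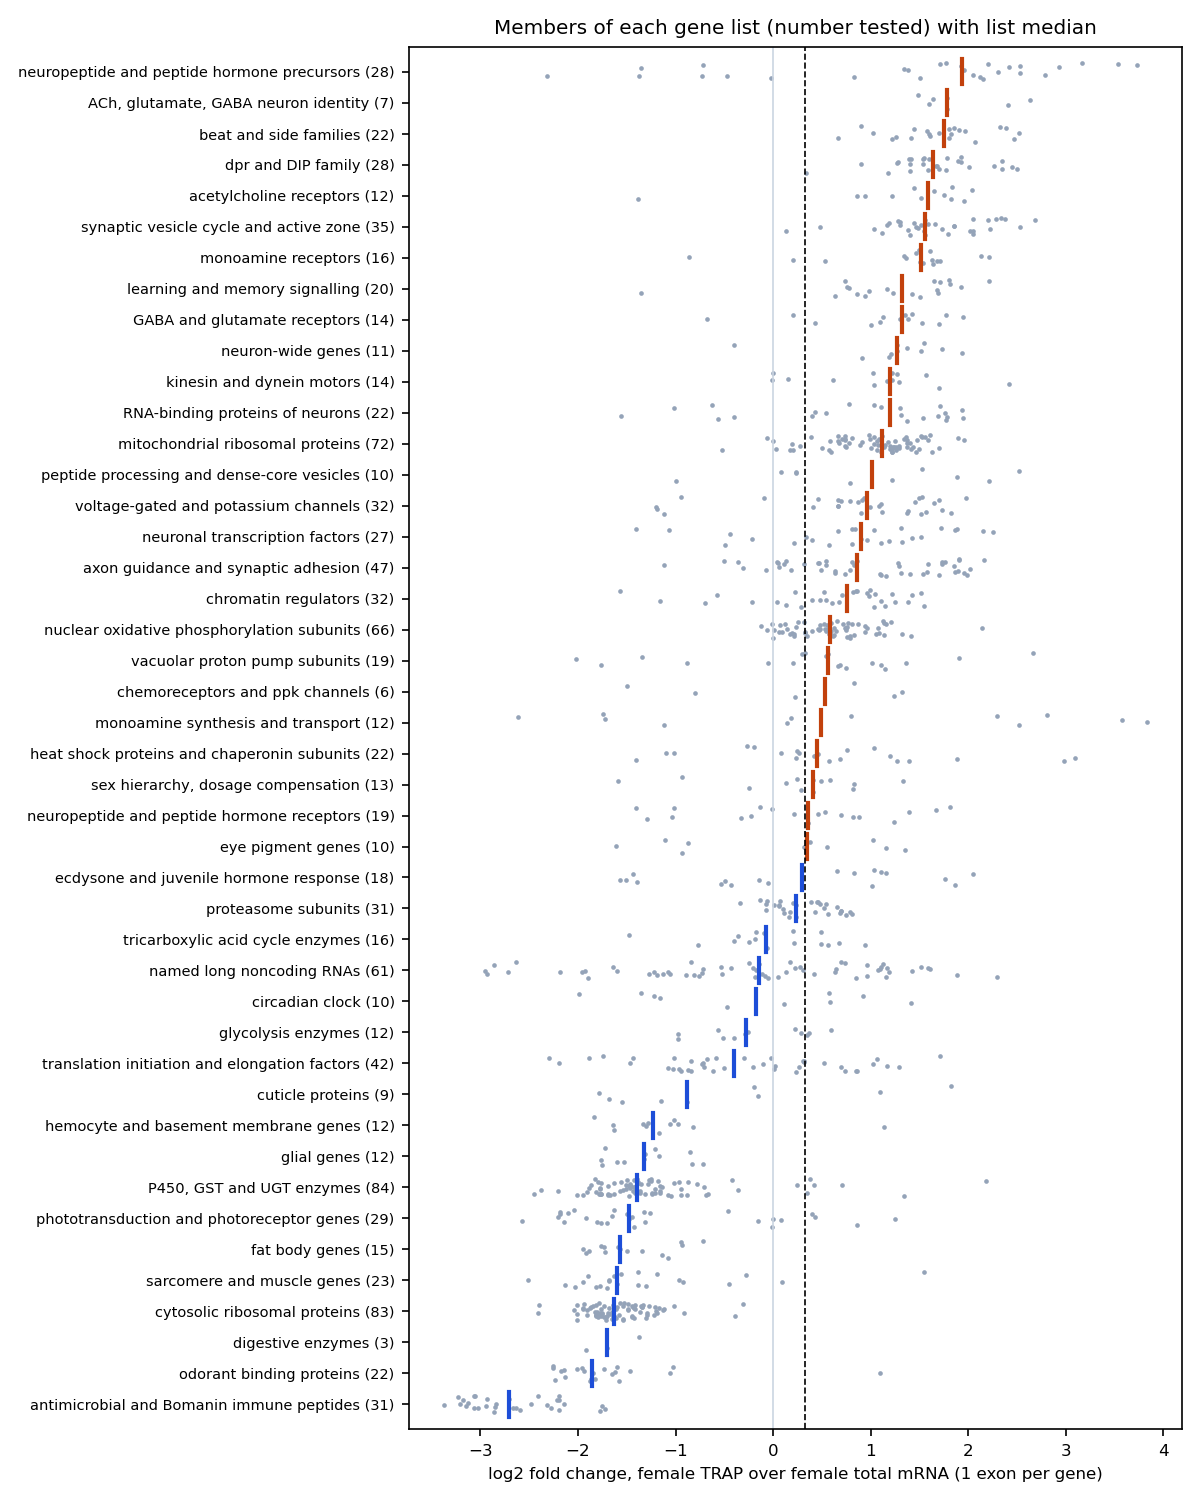
Log2 fold change of female TRAP over female total mRNA for every tested member (dots) and the median (bar) of 44 gene lists, ordered by median, with the median of all 8300 genes, 0.33, as a dashed line. Lists of synaptic, receptor and cell surface genes lie above the line, and immune peptide, odorant binding protein, ribosomal protein, fat body and muscle lists lie below 0.

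Cell surface families that pair neurons with their partners were raised nearly without exception. All 28 tested members of the dpr and DIP families of immunoglobulin proteins were called higher, 26 at least 2-fold, at a median of 1.64. DIP-gamma, with 20.3, 17.9, 25.4 and 28.6 CPM in TRAP, against 2.77, 4.33, 5.21 and 3.97 CPM in total mRNA, had the largest change (2.50, SE 0.21). dpr14 (2.45, SE 0.23) and DIP-beta (2.35, SE 0.18) followed. DIP-epsilon had the smallest change, 0.34 (SE 0.17), with overlapping groups. Its call was lost without TRAP replicate 5, total mRNA replicate 2 or total mRNA replicate 4, and its sign turned when all its exons were summed (-0.12). The beat and side families, ligands and receptors in motor axon guidance, gave the same picture, with 22 of 22 higher and 20 at least 2-fold at a median of 1.75. beat-VII led with 75.1, 51.2, 74.7 and 87.2 CPM in TRAP, against 11.5, 11.9, 10.6 and 16.2 CPM in total mRNA (2.52, SE 0.19). side-V was smallest at 0.66 (SE 0.18), with overlapping groups.

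Other guidance and adhesion genes were higher in 36 of 47 cases and lower in 2, at a median of 0.86. Nrx-1, the presynaptic adhesion protein neurexin, rose by 2.16 (SE 0.21), the teneurin gene Ten-a by 2.02 (SE 0.21) and the netrin gene NetB by 1.99 (SE 0.21). The 2 called lower were bdl (-1.12, SE 0.19), an immunoglobulin protein of eye development, and Sema1b (-0.50, SE 0.13), a semaphorin that was not called by library totals alone. Genes of learning and memory signalling were higher in 19 of 20 cases, at a median of 1.32. dnc, the cAMP phosphodiesterase, had 368, 268, 466 and 498 CPM in TRAP, against 84.8, 93.1, 117 and 162 CPM in total mRNA (1.81, SE 0.24), and all 28 of its tested exons were higher. CASK, a membrane-associated guanylate kinase, had the largest value of the list, 2.21 (SE 0.19), by an exon that overlaps lncRNA:CRG, and its most 5′ exon stood at -0.22. teq was the one called lower (-1.35, SE 0.18).

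Transcription factors of neurons were higher in 20 of 27 cases and lower in 4 (median 0.90). The homeobox genes Rx (2.25, SE 0.24) and Lim1 (2.15, SE 0.18) and the POU gene acj6 (1.88, SE 0.25) had the largest changes. Lim1 had 66.2, 52.2, 75.3 and 71.2 CPM in TRAP, against 12.6, 13.2, 14.4 and 19.6 CPM in total mRNA. Lmx1a, a LIM homeobox gene outside this list, had 17.2, 16.4, 23.1 and 24.6 CPM in TRAP, against 1.21, 2.89, 2.30 and 3.45 CPM in total mRNA (3.05, SE 0.27). The lowest were ttk (-1.41, SE 0.14), a repressor of neuronal fate, and svp (-1.07, SE 0.17), an orphan nuclear receptor. Below the filter, the homeobox gene otp had 8.33 to 11.1 CPM in TRAP, against 1.12, 2.05, 2.03 and 1.96 CPM in total mRNA, and no library of either group overlapped.

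Genes of the sex determination hierarchy and of dosage compensation, taken as 1 list, had a median close to that of all genes, 0.41. Of these 13 genes 8 were higher, 2 lower and 3 not called. The dosage compensation genes msl-2, mof and lncRNA:roX1 were among those lower or not called. After fru, ix (0.83, SE 0.24) and her (0.82, SE 0.16) had the largest changes. dsx, the other end point of the hierarchy, had 2.7, 2.83, 3.79 and 2.37 CPM in TRAP, against at least 8.06 CPM in each total mRNA library and 8.8 ± 0.883 CPM on average (-1.59, SE 0.19). Its groups did not overlap, and all 3 of its tested exons were lower. Sxl, the master switch of female splicing, had 0.41 (SE 0.14) by the represented exon and -0.53 by its most 5′ exon, with 1 of 17 exons higher and 7 lower. msl-2, which Sxl represses in females, was lower at -0.93 (SE 0.31) with overlapping groups. The nuclear receptor gene dsf, which acts in sexual behaviour, was below the filter with 2.24, 1.36, 2.07 and 2.01 CPM in TRAP, against 0.224, 0.512, 0.165 and 0.115 CPM in total mRNA.

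RNA-binding protein genes of neurons were higher in 17 of 22 cases at a median of 1.20, led by bru3 (1.95, SE 0.21), fne and shep (1.78, SE 0.23). shep had 1628, 1389, 2011 and 2362 CPM in TRAP, against 386, 505, 521 and 737 CPM in total mRNA. Those called lower included mbl (-1.56, SE 0.15), the muscleblind splicing factor, bru1 (-1.02, SE 0.18) and Syp (-0.63, SE 0.14). mbl and bru1 depended on the exon, with log2 fold changes of 2.50 and 0.89 for their most 5′ exons and of 1.40 and 1.18 for their most 3′ exons. Chromatin regulators were higher in 24 of 32 cases and lower in 4 (median 0.76). HDAC4 (1.55, SE 0.22), the Polycomb gene Pc (1.51, SE 0.17) and the GAGA factor gene Trl (1.42, SE 0.14, but -0.46 by its most 5′ exon) were at the top, and the Polycomb complex member esc (-1.57, SE 0.24) was at the bottom with 1.43, 2.52, 1.92 and 1.16 CPM in TRAP, against 5.01, 5.08, 5.92 and 4.72 CPM in total mRNA. The histone demethylase gene Utx stood at -0.70 (SE 0.21), with overlapping groups and no call by library totals alone.

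Clock genes parted, with 4 higher, 5 lower and 1 not called. The lower ones included the transcriptional activator gene Clk (-1.22, SE 0.19), the blue-light receptor gene cry (-1.35, SE 0.17) and the repressor gene vri (-1.99, SE 0.33). cry had 18.9, 28.8, 18.4 and 23.5 CPM in TRAP, against 67.6, 57.8, 53.5 and 49.0 CPM in total mRNA. vri had 7.79, 11.5, 7.78 and 5.64 CPM in TRAP, against 26.6, 20.5, 60.2 and 22.2 CPM in total mRNA, where replicate 4 stood apart. The kinase gene sgg (1.41, SE 0.18) and the activator gene Pdp1 (0.92, SE 0.20) were higher, with 14 and 2 of their exons lower. The median of the list, -0.18, turned positive by library totals alone.

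Ecdysone and juvenile hormone genes had a median of 0.30, with 9 of 18 higher and 7 lower. The early ecdysone response genes Eip78C (2.05, SE 0.17), br (1.86, SE 0.21) and Hr3 (1.76, SE 0.19) had the largest changes. Eip78C had 42.0, 26.7, 39.2 and 32.5 CPM in TRAP, against 8.05, 7.41, 8.56 and 9.96 CPM in total mRNA. At the other end were the 3 juvenile hormone epoxide hydrolase genes, Jheh1 (-1.57, SE 0.14), Jheh2 (-1.51, SE 0.19) and Jheh3 (-1.44, SE 0.21).

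Markers of photoreceptors were lower. Of 29 genes of phototransduction 21 were called lower, 20 by at least 2-fold, and 4 higher (median -1.48). ninaE, the major rhodopsin, had 2194, 2314, 2443 and 2967 CPM in TRAP, against 8973, 10308, 9930 and 8237 CPM in total mRNA (log2 fold change -1.92, SE 0.18; edgeR exact test, adjusted p = 2.18e-28). The level in TRAP was thus lower than in total mRNA in every library but far from the detection limit. Gbeta76C, the G protein subunit of the eye, was lowest (-2.57, SE 0.16), followed by Arr1, an arrestin (-2.21, SE 0.18), and ninaC, a photoreceptor myosin (-2.18, SE 0.17). Galphaq, which also signals outside the eye, was the member most raised by its represented exon (1.25, SE 0.17), but 10 of its 14 exons were lower and its summed reads gave -0.72. The phospholipase gene norpA, at -0.46 (SE 0.16), was not called by library totals alone. Eye pigment genes parted, with 6 of 10 higher and 4 lower. w (white) was highest at 1.35 (SE 0.18), but its reads include the w+ markers of the transgenes. v (-1.61, SE 0.27) and ry (-1.11, SE 0.24), enzymes of pigment synthesis, were lower.

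Odorant binding proteins, secreted by support cells of sense organs, were lower in 21 of 22 tested genes, at a median of -1.86. Obp99c had 74.8, 106, 124 and 110 CPM in TRAP, against 340, 325, 512 and 339 CPM in total mRNA (-1.87, SE 0.20), and Obp8a had -2.26 (SE 0.17). Obp57d was the one higher (1.09, SE 0.20), by reads that cannot be told apart from those of Cpr57A. Chemoreceptor genes were mostly too low to test. Of 189 odorant, gustatory and ionotropic receptor and pheromone-sensing ppk genes only 6 passed the filter, and the exons of 4 of these (Ir75d, Or43b, Gr43a and Ir85a) overlap other genes. Of the remaining pair Ir75a was lower (-0.80, SE 0.23) and Ir76a was not called (0.22, SE 0.18). Among the 183 below the filter, 167 had at least 1 read, and all TRAP libraries were above all total mRNA libraries in 15 (8.98%) and below in 4 (2.40%), against 7.23% and 9.81% of all genes below the filter. ppk23, a channel gene of pheromone-sensing taste neurons, had 10.7, 0.629, 1.01 and 3.58 CPM in TRAP, against 0.626, 0, 0.165 and 0.461 CPM in total mRNA. The groups were just separate, and TRAP replicate 2 was by far the highest. ppk29, which acts in the same neurons, had 1.93, 1.36, 2.27 and 2.47 CPM in TRAP, against 0.939, 0.652, 0.274 and 0.576 CPM in total mRNA.

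Genes of other cell types were lower but not absent. All 12 glial genes were called lower, 9 by at least 2-fold, at a median of -1.32. repo, the glial homeobox gene (chr3R:18237835-18239602, coding and 3′ UTR), had 8.44, 10.6, 9.65 and 12.7 CPM in TRAP, against 28.4, 28.6, 28.3 and 34.2 CPM in total mRNA (-1.53, SE 0.16; edgeR exact test, adjusted p = 6.36e-17). The groups lay far apart, and repo remained well above 3 counts in TRAP. Tret1-1, a sugar transporter, and moody, a receptor of the blood-brain barrier, had the largest changes (-1.77, SE 0.17 and -1.75, SE 0.15). The smallest changes were those of axo (-0.72, SE 0.20), loco (-0.83, SE 0.16) and Mdr65 (-0.85, SE 0.26, with overlapping groups). The astrocyte gene alrm stood at -1.21 (SE 0.17), with the glutamate transporter gene Eaat1 at -1.31 (SE 0.15) and the glutamine synthetase gene Gs2 at -1.60 (SE 0.15).

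Fat body genes were lower in 15 of 15 cases, at a median of -1.57. The yolk protein gene Yp1 had 5719, 8723, 8651 and 8570 CPM in TRAP, against 26890, 34728, 33658 and 26678 CPM in total mRNA (-1.95, SE 0.22). Yp2 (-1.92, SE 0.22), Yp3 (-1.89, SE 0.23) and the larval storage protein gene Lsp2 (-1.76, SE 0.22) moved by nearly the same amount. The lipophorin gene apolpp was lower by less (-0.94, SE 0.19). The summed level of the list was 10898 to 17555 CPM in TRAP and 49172 to 63999 CPM in total mRNA, and the part of these mRNAs in the level of any other gene was not tested.

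Immune peptides, made largely by fat body, had the lowest median of the 44 lists, -2.71. All 31 tested antimicrobial and Bomanin genes were lower, and 11 of the 15 most lowered genes that met the naming rule were of this kind. Mtk, the antifungal peptide metchnikowin (chr2R:15408846-15409113), had 18.5, 50.1, 31.2 and 24.1 CPM in TRAP, against 294, 462, 351 and 174 CPM in total mRNA (-3.37, SE 0.34; edgeR exact test, adjusted p = 6.5e-21). BomS1 had 7.13, 16.2, 10.3 and 8.31 CPM in TRAP, against 95.6, 131, 102 and 63.2 CPM in total mRNA (-3.23, SE 0.28). Dso2 (-3.21, SE 0.21) and Dso1 (-3.18, SE 0.23), peptides induced by the Toll pathway, and Dro, the antibacterial drosocin (-3.06, SE 0.32), changed by similar amounts. AttC, an attacin, changed least (-1.72, SE 0.38) with overlapping groups. The list summed to 301 to 627 CPM in TRAP and 1784 to 3355 CPM in total mRNA.

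Muscle genes were lower in 19 of 23 cases, at a median of -1.60, with more spread between libraries than other classes. Mlc2, a myosin light chain, had 41.5, 48.2, 19.6 and 24.6 CPM in TRAP, against 299, 171, 139 and 155 CPM in total mRNA (-2.51, SE 0.31). Mhc, the myosin heavy chain, was lower at -0.97 (SE 0.33) with overlapping groups, 45.6, 55.2, 16.8 and 29.2 CPM in TRAP, against 115, 56.8, 54.3 and 61.3 CPM in total mRNA. sls, a titin-like protein, went the other way (1.55, SE 0.36), again with overlapping groups. Hemocyte and basement membrane genes were lower in 11 of 12 cases, with the blood cell genes Hml (-1.06, SE 0.21) and NimC1 (-1.64, SE 0.25) and the basement membrane gene SPARC (-1.63, SE 0.18) among them. Pxn was the exception (1.14, SE 0.20), by an exon that overlaps CG16986. Cuticle genes passed the filter in only 9 of 118 cases, 5 lower and 2 higher, and the 3 tested digestive enzyme genes were all lower. Of 13 germline and eggshell genes 0 were tested.

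Enzymes of detoxification were lower in 75 of 84 cases, 66 by at least 2-fold, at a median of -1.40. GstE12, a glutathione transferase, had 31.5, 50.8, 45.6 and 46.7 CPM in TRAP, against 201, 201, 227 and 180 CPM in total mRNA (-2.21, SE 0.17), and GstE9 stood at -2.45 (SE 0.20). The few called higher included Cyp4s3 (2.18, SE 0.28) and GstE13 (1.34, SE 0.16). The exons of these genes overlap a neighbour, as do those of GstE12 and GstE9.

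Ribosomal protein genes of the cytosol and of mitochondria went opposite ways. Of cytosolic ribosomal protein genes, with RpL10Ab left out of the list because of the transgene, 83 of 83 were lower, 80 by at least 2-fold, at a median of -1.63. RpL30 (chr2L:19008949-19009137) had 79.8, 89.6, 89.5 and 75.6 CPM in TRAP, against 396, 487, 491 and 397 CPM in total mRNA (-2.40, SE 0.15; edgeR exact test, adjusted p = 1.49e-45), and RpS20 was at -2.41 (SE 0.14). RpL24-like (-0.31, SE 0.15), which serves ribosome assembly and carries a ribosomal protein name, changed least and was the only member of the list whose groups overlapped, and its call was lost without TRAP replicate 2 or 3. In sum the list held 30553 to 46008 CPM in TRAP and 89357 to 134824 CPM in total mRNA. Mitochondrial ribosomal protein genes were higher in 65 of 72 cases and lower in 1, at a median of 1.12. mRpL11 (1.96, SE 0.22) and mRpS25 (1.89, SE 0.23) led, each by an exon that overlaps another gene. mRpL45 was the one lower (-0.52, SE 0.19), with overlapping groups and no call by library totals alone.

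Translation factors were split. Of 42 genes 22 were lower and 14 higher (median -0.40). The elongation factor genes eEF1alpha1 (-2.20, SE 0.22), eEF1beta (-2.30, SE 0.20) and eEF1gamma (-1.89, SE 0.20) fell like ribosomal protein genes, and eEF1alpha1 had 1459, 2515, 2538 and 2262 CPM in TRAP, against 9191, 11177, 10849 and 9112 CPM in total mRNA. Its paralog eEF1alpha2, the form of nerve and muscle in mammals, was higher (0.74, SE 0.17) but stood at -0.59 by its most 5′ exon, and also higher were the repressor gene eIF4EHP (1.71, SE 0.19) and eIF5B (1.17, SE 0.23).

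Nuclear genes of oxidative phosphorylation were higher in 51 of 66 cases and lower in 0, but only 11 reached 2-fold, at a median of 0.58. ND-49, a subunit of complex I, had 110, 112, 131 and 125 CPM in TRAP, against 44.9, 45.6, 39.8 and 49.2 CPM in total mRNA (1.41, SE 0.13). ATPsynC, the ring subunit of ATP synthase, was 0.62 (SE 0.16) by its represented exon and -1.10 by its most 5′ exon, and 7 of its 8 exons were lower. Enzymes of the tricarboxylic acid cycle (6 higher, 5 lower of 16) and of glycolysis (4 higher, 7 lower of 12) had medians of -0.07 and -0.28, and both medians turned positive under other scalings or exons. The largest change in the list of cycle enzymes was that of Idh (-1.48, SE 0.15), which is the cytosolic isocitrate dehydrogenase and not the enzyme of the cycle itself. Gapdh1 (-0.98, SE 0.14), Ldh (-0.98, SE 0.22) and Hex-A (0.59, SE 0.14) marked the ends of the glycolysis list.

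Proteasome subunits changed little, with 16 of 31 higher, 1 lower and a median of 0.23, and the largest change was 0.81 (SE 0.17), for Rpt4. Subunits of the vacuolar proton pump, which acidifies synaptic vesicles and other organelles, had a median of 0.56 and included pairs of paralogs that went opposite ways. Vha68-1, a catalytic subunit, had 321, 294, 444 and 406 CPM in TRAP, against 49.2, 56.0, 51.8 and 74.5 CPM in total mRNA (2.66, SE 0.19). Its paralog Vha68-2 had 9.02, 12.5, 12.8 and 14.2 CPM in TRAP, against 46.9, 37.8, 43.2 and 36.8 CPM in total mRNA (-1.77, SE 0.16). The same held for the membrane subunits Vha100-1 (1.36, SE 0.18) and Vha100-2 (-1.34, SE 0.22), and for VhaM9.7-a (1.90, SE 0.19) and VhaM9.7-c (-2.02, SE 0.30). Vha100-1 stood at -0.19 by its most 5′ exon.

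Chaperone genes were higher in 15 of 22 cases and lower in 3. The small heat shock protein genes Hsp23 and Hsp67Ba were among the 15 most raised genes. Hsp23 had 183, 136, 142 and 123 CPM in TRAP, against 15.5, 16.1, 11.2 and 25.7 CPM in total mRNA (3.09, SE 0.24), and Hsp67Ba changed by 2.98 (SE 0.24). The 3 called lower were all Hsc70 genes, with Hsc70-4 at 716, 839, 798 and 725 CPM in TRAP, against 1611, 1735, 1589 and 1308 CPM in total mRNA (-1.02, SE 0.15), Hsc70-3 of the endoplasmic reticulum at -1.10 (SE 0.15) and Hsc70-1 at -1.41 (SE 0.35). Motor protein genes were higher in 11 of 14 cases and lower in 0, at a median of 1.20. unc-104, the kinesin that carries synaptic vesicle precursors along axons, had 1046, 714, 1075 and 886 CPM in TRAP, against 155, 158, 173 and 209 CPM in total mRNA (2.42, SE 0.18).

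Named long noncoding RNAs divided about equally, 23 higher and 26 lower of 61 (median -0.15). lncRNA:CR34335, an X-linked RNA, had 87.8, 118, 111 and 90.9 CPM in TRAP, against 683, 594, 866 and 812 CPM in total mRNA (-2.86, SE 0.18), and lncRNA:CR40469 changed by -2.95 (SE 0.26). lncRNA:noe, a nervous system RNA, averaged 4122 ± 909 CPM in TRAP, against 9627 ± 2357 CPM in total mRNA (-1.22, SE 0.23). lncRNA:mimi went the other way, at 1189, 1912, 1552 and 1383 CPM in TRAP, against 385, 410, 532 and 655 CPM in total mRNA (1.61, SE 0.21).

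Among the remaining genes with the largest rises by the naming rule, Hasp, a scaffold protein of the synaptic cleft, had 163, 127, 226 and 203 CPM in TRAP, against 14.3, 15.3, 17.4 and 27.1 CPM in total mRNA (3.28, SE 0.24), and 17 of its 19 tested exons were higher. The others have no assigned name: CG12994 (3.36, SE 0.20), CG9123 (3.21, SE 0.28), CG8401 (3.18, SE 0.33) and CG15537 (3.0, SE 0.32). CG12994 had 53.5, 48.1, 72.9 and 69.3 CPM in TRAP, against 4.34, 5.82, 6.80 and 6.79 CPM in total mRNA. Of unnamed genes with large falls, CG43351 stood at -3.09 (SE 0.20) and CG4250 at -3.0 (SE 0.17).

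Gene structure differed across the range of change. Genes with a log2 fold change below -2 had a median span of 1097 bp on the genome, and those above 2 had one of 6790 bp. By chromosome the median was 0.55 for the 79 tested genes of chromosome 4 and 0.31 to 0.35 elsewhere. Within genes, values depended on the exon's place. In 3131 genes with at least 3 tested exons that do not overlap, the most 3′ exon had the higher log2 fold change in 82.4%, with a median difference of 0.55 between the most 3′ and the most 5′ exon. The difference was 0.48, 0.30, 0.67 and 0.58 in pairs 2, 3, 4 and 5.

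Classes shared this gradient unequally. It was 1.37 for motor protein genes (9 of 9 genes with a higher 3′ exon), 1.36 for neuron-wide genes (8 of 10), 1.08 for memory signalling genes (14 of 15) and 1.02 for tricarboxylic acid cycle enzymes (14 of 14). It was 0.19 for cytosolic ribosomal proteins (53 of 57), 0.11 for fat body genes (7 of 10), 0.09 for photoreceptor genes (14 of 24) and 0.03 for detoxification enzymes (12 of 22). Medians from the most 5′ exon alone were 0.50 for neuron-wide genes and 1.24 for synaptic genes, against -0.05 for all genes by that exon. The median of 7 lists changed sign by that exon. These were motor proteins (-0.16), peptide processing (-0.11), vacuolar proton pump subunits (-0.19) and chaperones (-0.28). The others were monoamine synthesis (-0.06), sex determination with dosage compensation (-0.25) and eye pigment genes (-0.25). From the most 5′ exon, 3000 genes were called higher and 3311 lower. Of the 215 tested genes named here or under other observations, 17 changed sign by that exon and 3 (Pdfr, bru1 and mbl) by the most 3′ exon. A call was lost without a change of sign for Galphaq, Hr3, Nrx-1, Pu, SerT, her, sls and unc79 by the most 5′ exon, and for Pal1 and eIF4EHP by the most 3′ exon. The male libraries had a smaller difference over the 2984 genes measured in either sex, 0.55 in females and 0.19 in males.

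**Figure D4:**
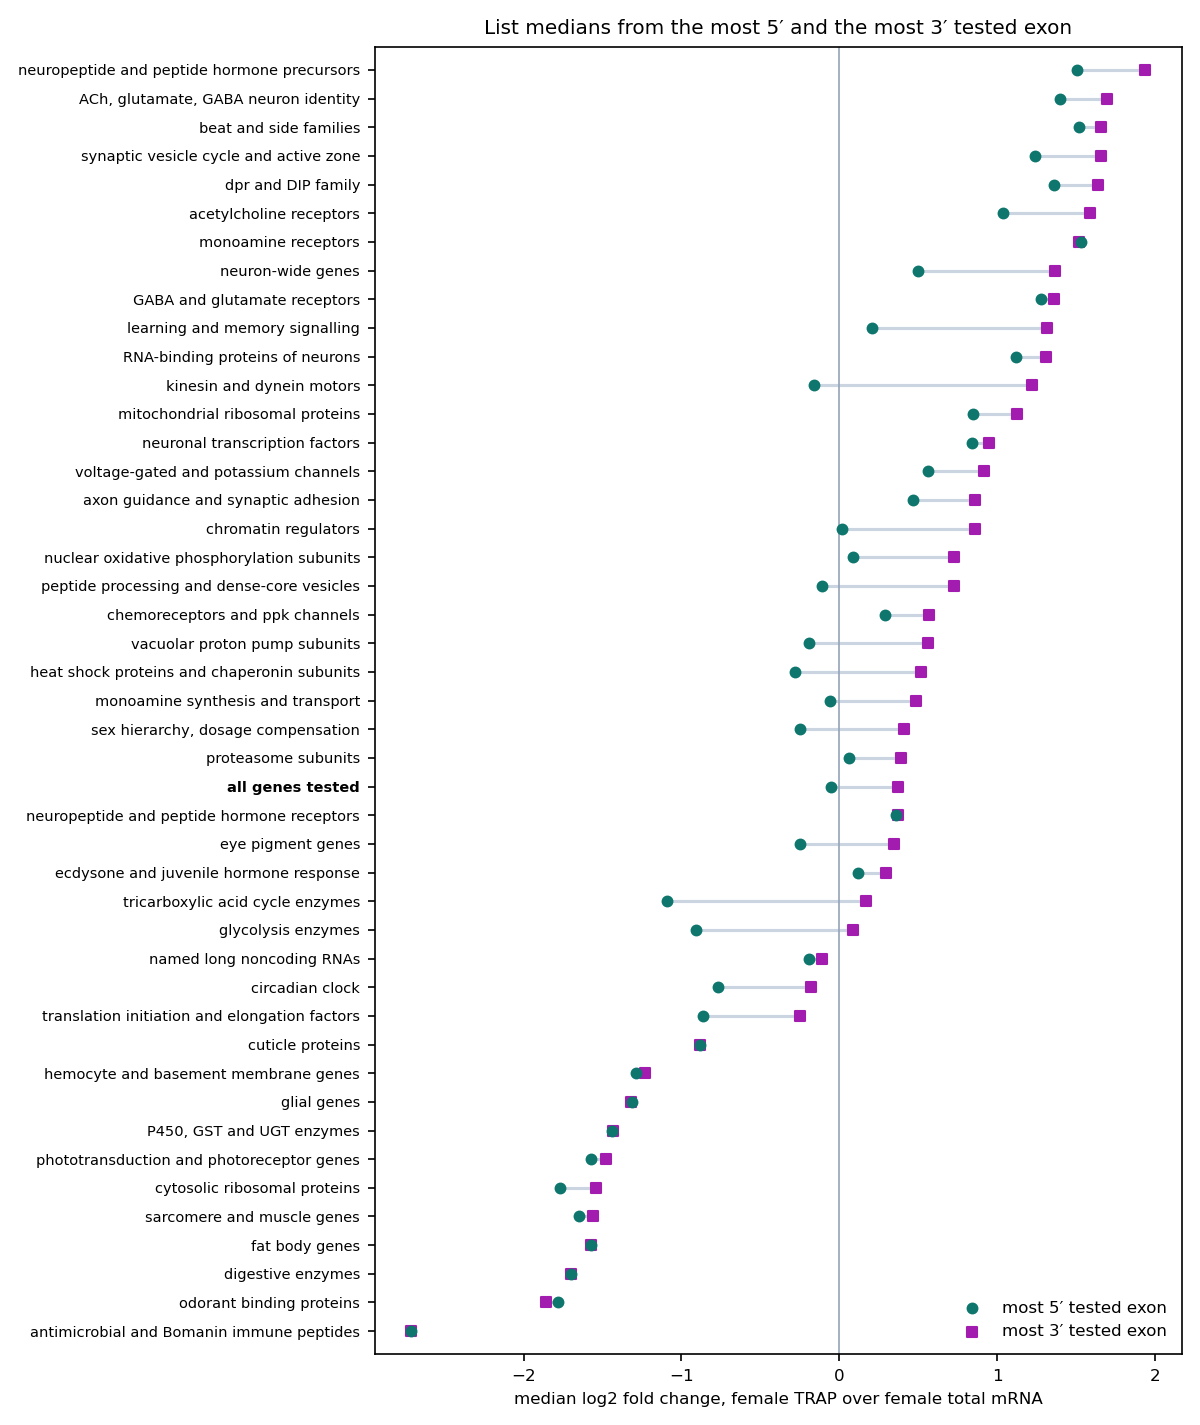
Median log2 fold change of female TRAP over female total mRNA for each gene list, by the most 5′ tested exon and by the most 3′ tested exon of each gene, joined by a line. Neuron-wide genes move between 0.50 and 1.37, and lists below 0, such as photoreceptor and fat body genes, hardly move.

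A model over all 16 libraries asked where the TRAP effect of females differed from that of males. Of 8385 genes 14 (0.167%) had an exon with a called difference (edgeR quasi-likelihood test, interaction term), 4 with a larger and 10 with a smaller log2 fold change in females, and 1624 had an unadjusted p under 0.05. With the replicate number as a block within each sex the count was 49, and with DESeq2 it was 102. It was 8 without female TRAP replicate 4 and 9 without female TRAP replicate 5 or without female total mRNA replicate 3 or 5. Male TRAP libraries were replicates 1, 2, 4 and 5, and male total mRNA libraries were replicates 1, 2, 3 and 4. In the block fit, male TRAP replicate 5 and male total mRNA replicate 3 had no partner and did not inform the TRAP effect. The values below are of the exon with the lowest adjusted p, scaled over the 16 libraries. Precursors of neuropeptides or peptide hormones made up 8 of the 14, and since all the genes with a called difference are named here, they were chosen by their values.

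Crz showed the largest contrast by adjusted p. Normalised CPM were 5.03, 5.25, 8.72 and 9.13 in female TRAP, against 6.52, 7.18, 6.30 and 10.3 in female total mRNA, and 57.2, 68.2, 68.9 and 35.4 in male TRAP, against 7.84, 9.5, 4.83 and 6.96 in male total mRNA. Every male TRAP library was above every other library, and the female groups overlapped. The interaction, female minus male, was -3.08 on the log2 scale (edgeR quasi-likelihood test, adjusted p = 0.00115). Dh44, a diuretic hormone gene, averaged 6.29 ± 1.20 CPM in female TRAP and 3.14 ± 1.29 CPM in female total mRNA, and 27.7 ± 7.89 CPM in male TRAP and 2.93 ± 0.925 CPM in male total mRNA (interaction -2.21). ITP, the ion transport peptide, was lower in female TRAP, 17.1 ± 1.02 CPM against 30.4 ± 4.09 CPM in female total mRNA, and higher in male TRAP, 52.5 ± 6.93 CPM against 30.3 ± 9.77 CPM in male total mRNA (interaction -1.62).

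The insulin-like peptide genes were higher in TRAP of either sex, and less so in females. For Ilp2 the interaction was -3.14, with 20.8 ± 5.66 CPM in female TRAP and 8.24 ± 6.50 CPM in female total mRNA, and 151 ± 43.8 CPM in male TRAP and 6.77 ± 2.02 CPM in male total mRNA. Ilp3 (-2.30) and Ilp5 (-2.21; edgeR quasi-likelihood test, adjusted p = 0.192) had values of the same kind, and Capa, the precursor of capability peptides, had -1.62. Female total mRNA replicate 5 was the highest of its group for Ilp2, Ilp3, Ilp5 and Capa. CG5160 (-2.13), CG42394 (-1.24) and cv-c (-1.28) also had smaller values in females.

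Among the genes with a called difference, larger effects in females were fewer. That count does not describe all genes. Neuron-wide genes had a median log2 fold change of 1.27 in females and 0.63 in males, and synaptic vesicle genes 1.56 and 1.03. Chaperones had 0.45 in either sex. Differences between the sexes in list medians were not tested. SerT averaged 41.7 ± 10.6 CPM in female TRAP and 9.11 ± 0.503 CPM in female total mRNA, and 22.3 ± 3.45 CPM in male TRAP and 12.1 ± 2.24 CPM in male total mRNA (interaction 1.30). Orcokinin was higher in female TRAP, 32.0 ± 1.97 CPM against 19.4 ± 1.56 CPM in female total mRNA, while male TRAP had 20.7 ± 1.66 CPM and male total mRNA 25.4 ± 3.32 CPM (interaction 1.01). CG32706 and CG6999 are neighbours on the X chromosome whose exons do not overlap, and their interactions were 2.10 and 2.11. They averaged 9.61 and 9.96 CPM in female TRAP, against only 1.05 and 1.08 CPM in female total mRNA. Male TRAP had 7.28 and 6.97 CPM, and male total mRNA 3.45 and 3.28 CPM. These exons did not pass the filter of the female libraries, so their change in females alone was not tested. Leaving out each of the 8 female libraries in turn, the call held in all 8 fits for Crz, Dh44, ITP, Ilp2, Ilp3, CG32706 and CG6999, in 7 for CG5160, in 4 for Orcokinin, in 3 for Capa, in 2 for SerT, cv-c and CG42394, and in 1 for Ilp5.

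**Figure D5:**
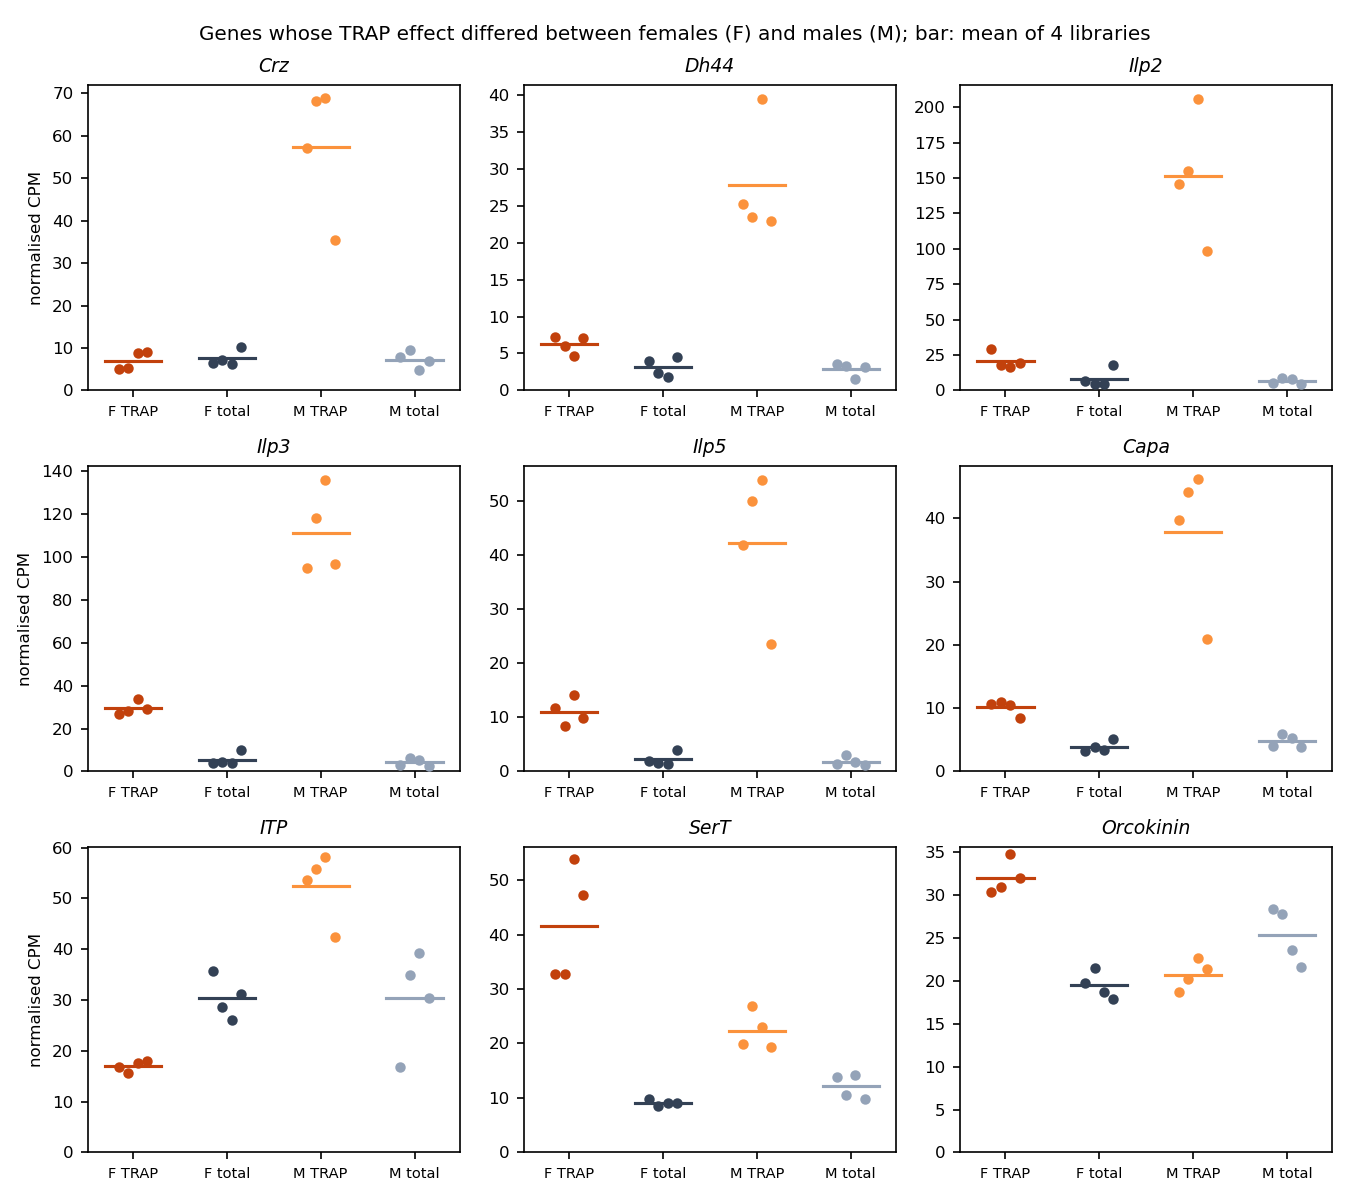
Normalised CPM (linear axis) of 9 genes with a called difference between the sexes, with a point for each library and a bar at each mean. From left to right are female TRAP, female total mRNA, male TRAP and male total mRNA. Male TRAP libraries of Crz lie between 35.4 and 68.9 CPM and female TRAP libraries between 5.03 and 9.13 CPM, and SerT is higher in female TRAP than in male TRAP.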

How the data were processed

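The 16 libraries, 4 per sex and fraction, were made with a kit that keeps no strand, so overlapping genes share reads. The represented exon overlapped another gene in 2718 of the 8300 tested genes (32.7%). Among the 215 tested genes named here it did so in 44, and only some of these overlaps are mentioned. Per the labels and the study's methods, the authors aligned reads with STAR 2.7.2a to dm6 (BDGP6), used SAMtools 1.2, and counted uniquely mapped reads per annotated exon with featureCounts. The deposited counts are raw and cover 87508 exons of 17753 genes. A deposited table of RPM, which the authors divided by library totals, was recomputed from those counts (largest difference 5.09e-11) and not used further.

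Exons above 2 CPM in at least 5 of the 8 female libraries (a share of 0.6) were tested with edgeR 4.0.16 in R 4.3.3, by the exact test with TMM scaling and Benjamini-Hochberg adjustment across all tested exons, at a false discovery rate of 0.2, as in the study. CPM for the filter were taken over library totals, without the TMM factors, which were 0.801 to 1.243. A gene below the filter can therefore exceed 2 normalised CPM in 5 or more libraries. Standard errors came from edgeR's quasi-likelihood fit of the same libraries, and the interaction of sex and fraction from the quasi-likelihood test over all 16. Genes under the filter got a two-sided exact permutation test. Other steps used Python 3.11.15, pandas 2.3.3, numpy 2.4.6 and matplotlib 3.10.9, and the code was tested on simulated data.

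Spearman correlations between libraries were 0.928 to 0.973 within and 0.67 to 0.828 between fractions. Replicates are pools of flies, which the study calls biological replicates, and nothing used here says more of how independent they are. Deviations from the group means of same-numbered TRAP and total mRNA libraries correlated at 0.464, 0.252, 0.584 and 0.401, and TRAP replicate 3 correlated more with total mRNA replicate 2 (0.385). As each same-numbered pair was above 0.1, the numbers were taken to pair the samples in an additional fit, as a block. The main calls, standard errors and interaction test did not use the pairing. The fit with this block is named where it changed the call of a gene printed here. The limit of 3 counts covers counting error only.

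The comparison and all gene lists were chosen with earlier results of these data known. Genes named were drawn, not exhaustively, from a rule that takes fru, RpL10Ab, cell type markers, the 15 largest changes per direction among called genes with separate groups and at least 20 CPM, and in each list the most abundant gene, the 3 largest, the 3 smallest and, where 5 or fewer, those not called or called against the median. Outside this rule, and chosen after their values were seen, are AstC-R2, CCHa1, CCKLR-17D3, ChAT, DAT, Ddc, FMRFa, NPF, Pdf, Pu, SerT, Tdc2, dsf, eEF1alpha2, otp, ple, ppk23, ppk29, the genes with a called difference between the sexes, and those under other observations. Alternatives were another test (quasi-likelihood, or DESeq2 1.42.0), the block, scaling, filter, threshold, exon or gene sums, and each library left out.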

Additional observations from a re-analysis of the deposited data

Results flagged for a closer look

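In some groups of 4 libraries, the highest or lowest lay so far from the other 3 that its gap, as a share of the group's range, passed Dixon's 95% critical value. Chance alone passes this limit in about 1 of 20 groups, here 43 of 548 groups (7.8%) passed it.

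In female TRAP, replicate 3 was low for ChT (82.4 CPM), Hr3 (81.4 CPM), Tbh (41.7 CPM) and the summed vacuolar proton pump subunits (1914 CPM), and high for Idh (81.0 CPM). Replicate 2 was low for the yolk protein gene Yp1 (5719 CPM), apolpp (223 CPM) and ry (6.13 CPM), all genes that were lower in TRAP than in total mRNA. Replicate 4 was high for the hemocyte gene NimC1 (2.27 CPM), and replicate 5 for para (516 CPM) and Obp8a (2.17 CPM). Among genes named under other observations, replicate 2 was high for Or47b (2.24 CPM), replicate 3 for pre-rRNA:CR45856 (290 CPM) and replicate 4 for osk (17.8 CPM).

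In female total mRNA, replicate 5 was apart in the largest number of groups. It was high for the neuronal or secretory genes brp (71.2 CPM), comt (59.8 CPM), Galphaq (60.5 CPM), Tbh (8.98 CPM), 7B2 (57.6 CPM), Capa (27.4 CPM), FMRFa (5.07 CPM), Hug (48.9 CPM), Ilp2 (104 CPM) and Ilp3 (8.93 CPM). It was also high for Sxl (90.9 CPM) and the glial gene repo (34.2 CPM), and low for Dso2 (43.5 CPM). Its sums were high for the synaptic vesicle list (2766 CPM), the motor proteins (838 CPM) and the chemoreceptors (46.6 CPM). Replicate 2 was high for muscle, both as a sum (1639 CPM) and for Mhc (115 CPM), and for Vha100-2 (24.4 CPM) and Hsc70-1 (13.8 CPM). It was low for the summed eye pigment genes (234 CPM), Irk2 (23.5 CPM), eIF5B (33.2 CPM) and otp (1.12 CPM). Replicate 4 was high for Yp3 (14312 CPM), Obp99c (512 CPM), vri (60.2 CPM) and Pal1 (17.0 CPM), and low for Pu (38.3 CPM).

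The effect of TRAP differed between the sexes by the interaction test for 14 genes. On the log2 scale, female minus male, the interaction was -3.14 for Ilp2, -3.08 for Crz, -2.30 for Ilp3, -2.21 for Ilp5, -2.21 for Dh44, -1.62 for ITP and -1.62 for Capa among peptide genes, and 1.01 for Orcokinin. It was -2.13 for CG5160, -1.28 for cv-c, -1.24 for CG42394, 1.30 for SerT, 2.10 for CG32706 and 2.11 for CG6999.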

How the results depend on the processing

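Every alternative test, scaling, filter, block and left-out library kept the numbers of genes called higher or lower within 1.5 times those reported, and the 2-fold threshold did not: it gave 2115 higher and 2049 lower by any exon, and 1841 higher and 1634 lower by 1 exon per gene. Scaling and exon choice moved the balance, with 53.0% of calls higher by gene sums, 47.5% by the most 5′ exon and 73.0% by library totals, against 62.5%. The number of genes whose TRAP effect differed between the sexes changed most, to 102 with DESeq2, 49 with the replicate block, 7 at a false discovery rate of 0.05, and 8 to 16 with 1 female library left out.

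Of 4253 values of the 215 tested genes named here, 4115 kept direction and call, 83 lost the call, 28 gained one and 27 changed sign. The replicate block gained a call for Ddc, Octbeta2R and Phm among these, and for 319 of all tested genes, with 0 lost. It changed the count of calls in 20 lists, by at most 4 genes. By the most 5′ exon the sign changed for ATPsynC (-1.10), CASK (-0.22), Ddc (-0.64), Nsf2 (-0.38), Phm (-0.45), RpL10Ab (-0.03), Sxl (-0.53), Trl (-0.46), Vha100-1 (-0.19), cpx (-0.96), cv-c (-0.68), eEF1alpha2 (-0.59), ple (-1.45), side-V (-0.27), bru1 (0.89), mbl (2.50) and norpA (0.44). By the most 3′ exon it changed for Pdfr (0.37), bru1 (1.18) and mbl (1.40), and by gene sums for DIP-epsilon (-0.12), Galphaq (-0.72), Nsf2 (-0.23), Sxl (-0.17) and cv-c (-0.65). Library totals turned Crz (0.36) and RpL24-like (0.09). The cause was not tested.

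Of the 44 lists with a median, 28 lay above 0, and 21 to 32 did so under the alternatives. The median difference between the most 3′ and most 5′ exon was 0.46 to 0.63 with a library left out and 0.52 to 0.56 under the other fits, all chosen after seeing the data. Genes near 2 CPM rest on few reads. By normalised CPM, the filter left out genes above 2 CPM in every library of 1 fraction and in no library of the other. These were 120 in TRAP and 147 in total mRNA.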

Other observations

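Receptors for peptides and odours lay partly below the filter, and some peptide receptors were clearly present in TRAP. Dh44-R1, a receptor for the diuretic hormone that Dh44 encodes, had 5.40, 4.40, 6.41 and 6.50 CPM in female TRAP, against 1.03, 1.21, 2.19 and 2.25 CPM in female total mRNA. The precursor gene natalisin, whose peptides act in reproductive behaviour, had 4.24, 3.93, 6.01 and 4.48 CPM in TRAP, against 2.06, 1.86, 2.25 and 1.79 CPM in total mRNA. The groups did not overlap for either gene, with an exact two-sided permutation p of 0.0286 each, which is 0.168 after adjustment over the 7445 genes below the filter. Or47b, an odorant receptor gene of pheromone-sensing neurons, had 2.24, 0.367, 0.0505 and 0.0504 CPM in TRAP, against 0.0895, 0.0932, 0 and 0 CPM in total mRNA. Of its reads, 58 lay in TRAP replicate 2. That library was also the highest for the odorant co-receptor gene Orco, with 7.36, 1.31, 1.21 and 2.52 CPM in TRAP, against 2.51, 0.14, 0.823 and 0.864 CPM in total mRNA, where the groups overlapped. In all, 120 genes left out of the test had over 2 normalised CPM in all 4 TRAP libraries and at most 2 in all 4 total mRNA libraries. For 147 genes it was the other way round.

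Single libraries also held transcripts of other kinds. The pre-rRNA:CR45856 exon of the X-linked rDNA had 2.78, 290, 8.08 and 12.4 CPM in TRAP, against 0.671, 1.96, 2.30 and 5.59 CPM in total mRNA. TRAP replicate 3 thus stood far above every other library, and the groups overlapped. The gene was still called higher, with a log2 fold change of 4.89, and its overlapping groups kept it out of the largest rises by the naming rule. The germline gene osk had 0.424, 0.472, 17.8 and 0.252 CPM in TRAP, against 0.224, 0.373, 0.658 and 0.288 CPM in total mRNA, with 353 of its TRAP reads in replicate 4. Noncoding RNA genes had a median log2 fold change of -0.15 over 309 tested genes, and protein-coding genes one of 0.35 over 7910.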
